A study of Rattus norvegicus with 24 samples.

Results

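The expression of 10 genes of the ATF4 pathway, the transcriptional arm of the integrated stress response, was examined in the fetal rat brain after 3 maternal insults. The genes were chosen by symbol from the 17420 rows of the deposited expression table: Atf4, Atf5, Ddit3, Cebpb and Nupr1, which encode transcription regulators, and Asns, Chac1, Trib3, Sesn2 and Eif4ebp1, which lie downstream of ATF4. All 10 were found. They were compared across 4 groups of Sprague-Dawley rat pups at embryonic day 18, with 6 pups per group from 2 litters of 3. RNA came from the hippocampus and neocortex together.

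The saline dams were the vehicle controls. The Low Protein (LP) dams ate a diet with 6.1% protein from gestational day 11. The MAM dams received the DNA-methylating agent methylazoxymethanol acetate at 22 mg/kg, and the Poly I:C dams received the synthetic double-stranded RNA polyinosinic:polycytidylic acid at 7.5 mg/kg. Injections were given on gestational day 17, and the tissue was taken 18 h later. Control dams ate a diet of the same energy content with more protein and less carbohydrate over the days of the LP diet. Whether the MAM and Poly I:C dams ate that diet too, and whether the LP dams were also injected, are not given in the sources used here. The dam was the treated unit, with 2 per group, whereas the pup was the replicate in every test, so p-values measure the spread between pups.

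In the integrated stress response, kinases that sense stress phosphorylate the alpha subunit of the initiation factor eIF2. GCN2 senses uncharged tRNA during amino acid shortage, PERK senses unfolded protein in the endoplasmic reticulum, PKR senses double-stranded RNA and HRI senses heme shortage and mitochondrial stress. General translation then falls while the Atf4 mRNA, held back at rest by upstream open reading frames, is translated. ATF4 pairs with C/EBP proteins on composite elements and switches on genes for amino acid synthesis and import, tRNA charging and redox balance. Because much of this control acts on translation, the amount of Atf4 mRNA need not follow the amount of ATF4 protein. The data hold RNA levels only.

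The promoter sequences below are shown because the composite C/EBP-ATF response element is the DNA feature that defines targets of this pathway. RefSeq sequences of the 250 bases before an annotated start were available for 9 of the 10 genes (all but Eif4ebp1), in the rat assembly GRCr8. They were searched on both strands for TGATGNAAN. For Asns and Atf5 the window lies inside the annotated span of the gene, so the bases before the outer end of that span were not searched. A match was found in 3 of the 9, namely Trib3, Chac1 and Nupr1, and in 3.38% of 33469 rat promoters of the same length. The matched letters are in capitals. Each match lies on the strand opposite to the one printed, so that the capitals are its reverse complement. It lies 22 to 14 bases before the start in Trib3, 168 to 160 in Chac1 and 56 to 48 in Nupr1. The Nupr1 match is also the stricter form TGATGCAAT, found in 0.161% of promoters. Asns encodes asparagine synthetase. It is printed because, among the 8 genes that could be compared, it had the largest log2 difference between LP and saline (0.51, with Atf5 at 0.49). Its window, at 36769416 to 36769665 within a gene annotated at 36752061 to 36769970, holds no match. The nutrient-sensing element TGATGAAAC, in 0.179% of promoters, was found in none of the 9 windows. These are matches of letters and not measured binding sites.
Trib3 (GRCr8 chr3.0:161275534-161275783, minus strand): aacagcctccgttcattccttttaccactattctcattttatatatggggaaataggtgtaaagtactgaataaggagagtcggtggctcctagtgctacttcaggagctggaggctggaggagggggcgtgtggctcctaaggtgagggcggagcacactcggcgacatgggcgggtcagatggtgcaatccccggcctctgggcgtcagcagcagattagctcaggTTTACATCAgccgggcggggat
Chac1 (GRCr8 chr3.0:126795881-126796130, plus strand): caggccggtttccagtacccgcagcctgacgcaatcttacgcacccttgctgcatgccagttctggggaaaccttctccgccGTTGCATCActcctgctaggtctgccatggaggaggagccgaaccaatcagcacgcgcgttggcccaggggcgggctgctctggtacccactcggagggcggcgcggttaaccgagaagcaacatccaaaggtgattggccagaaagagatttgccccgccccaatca
Nupr1 (GRCr8 chr1.0:190645902-190646151, minus strand): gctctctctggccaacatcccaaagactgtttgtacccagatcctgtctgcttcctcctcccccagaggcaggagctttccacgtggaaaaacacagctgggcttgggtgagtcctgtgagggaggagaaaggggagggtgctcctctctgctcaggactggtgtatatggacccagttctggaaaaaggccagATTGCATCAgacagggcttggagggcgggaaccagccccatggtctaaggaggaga
Asns (GRCr8 chr4.0:36769416-36769665, minus strand): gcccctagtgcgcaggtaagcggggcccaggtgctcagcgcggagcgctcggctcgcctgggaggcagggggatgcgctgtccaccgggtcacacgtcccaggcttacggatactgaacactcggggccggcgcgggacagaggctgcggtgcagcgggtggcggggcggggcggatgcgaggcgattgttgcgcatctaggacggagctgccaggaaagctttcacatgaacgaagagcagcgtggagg

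Expression was deposited as TPM, a transcript abundance scaled for gene length and library size, with an offset of 0.0001 already added. The values behaved as reads divided by the genomic span of each gene, introns included, so that levels of different genes can be compared only per length of genome and a long gene such as Asns appears low. On that scale, the mean over the 24 pups was highest for Atf4 at 66.4 TPM. It was 5.81 for Atf5, 1.77 for Chac1, 1.25 for Cebpb, 1.16 for Ddit3, 1.05 for Asns, 0.620 for Eif4ebp1 and 0.376 for Sesn2. Trib3, at 0.0144, rested on an estimated 0 to 16 reads per pup, and Nupr1, at 0.000712, was close to the offset. Depth was estimated from the steps between low values at 25 to 70.3 M reads per pup, with group medians of 43.7 (saline), 44.2 (LP), 51.0 (MAM) and 30.7 M (Poly I:C). An estimated 558 to 2740 reads per pup fell on Asns, 4406 to 11049 on Atf4 and 43 to 168 on Cebpb, where counting error alone is up to 15.3% of the value. Intervals of this kind cover counting error only.

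The limit on low values, a mean above 1 TPM in every group, was passed by Atf4, Atf5, Ddit3, Chac1 and Cebpb and by 5086 genes in all. With a limit of 0.1 TPM on the mean over all pups, Asns, Sesn2 and Eif4ebp1 were added, among 9879 genes. Differences are given as the log2 difference ± the standard error (SE) of limma's fit to all 24 pups. The 10 genes had been chosen with these contrasts known, so their values are a description and carry no p-value.

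Before the results, the pups that stood apart in marker genes have to be named. LP litter 2 pup 2 had the highest sum of all 24 pups for 6 of 6 listed meningeal markers (34.5 TPM, others 3.96 to 18.1), 6 of 8 blood markers (1166 TPM), 8 of 8 microglia and macrophage markers (26.8 TPM) and 6 of 6 endothelial markers (79.3 TPM). None of these markers was at 0 in all pups. The same pup had the highest Atf5, Trib3, Sesn2, Eif4ebp1, Nupr1 and Cebpb of all pups, and the part of these cells in those values was not tested. The other pups of LP litter 2 had meningeal sums of 9.94 and 7.48 TPM and blood sums of 657 and 771 TPM, within the range of the other groups. Markers of the dorsal telencephalon summed to 217 to 439 TPM in every pup, against at most 13.1 TPM for striatal and 5.58 TPM for thalamic markers. Blood markers summed to 474 to 1166 TPM, choroid plexus markers to 33.9 to 252 TPM and ganglionic eminence markers to 39.2 to 97.3 TPM. Such sums depend on the genes listed and do not by themselves identify the tissue. Saline litter 2 pup 1 had the lowest of these dorsal sums (217 TPM, next 278), with the highest sums for the ganglionic eminence (97.3 TPM, next 68.6) and striatum (13.1 TPM, next 10.7). Without it, the differences from saline were 0.55 for Asns, 0.53 for Atf5 and 0.50 for Eif4ebp1 in LP, -0.23 for Atf4 and 0.42 for Sesn2 in MAM, and 0.31 for Ddit3 and -0.38 for Cebpb in Poly I:C. Poly I:C litter 1 pup 3 had the lowest sum of choroid plexus markers (33.9 TPM), which were also low in MAM litter 1 pup 3 (58.3 TPM) and MAM litter 2 pup 3 (71.3 TPM), against 128 to 252 TPM in the other pups. Without that Poly I:C pup, Ddit3 differed by 0.34 and Cebpb by -0.33. With each pup left out in turn, these MAM pups among them, the MAM differences from saline were -0.23 to -0.21 for Atf4 and 0.37 to 0.47 for Sesn2. The part of these markers in the results was not tested. In bulk tissue, fewer cells of a type and less RNA per cell cannot be told apart.

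In the LP group, Asns, Atf5 and Eif4ebp1 were higher than in saline, and nearly the whole difference lay in 1 of the 2 litters. Asns, which makes asparagine from aspartate and glutamine, was at 0.974, 0.944 and 0.957 TPM in saline litter 1 and at 1.09, 0.834 and 0.930 TPM in saline litter 2. It was at 0.879, 1.07 and 1.12 TPM in LP litter 1, which overlapped saline, and at 1.29, 2.10 and 2.20 TPM in LP litter 2, where every pup was above every saline pup. Over all 6 pups, Asns was 0.51 ± 0.16 higher on the log2 scale, or 1.43-fold. The difference was 0.93 ± 0.13 with LP litter 2 alone and 0.10 ± 0.10 with LP litter 1 alone.

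**Figure D1:**
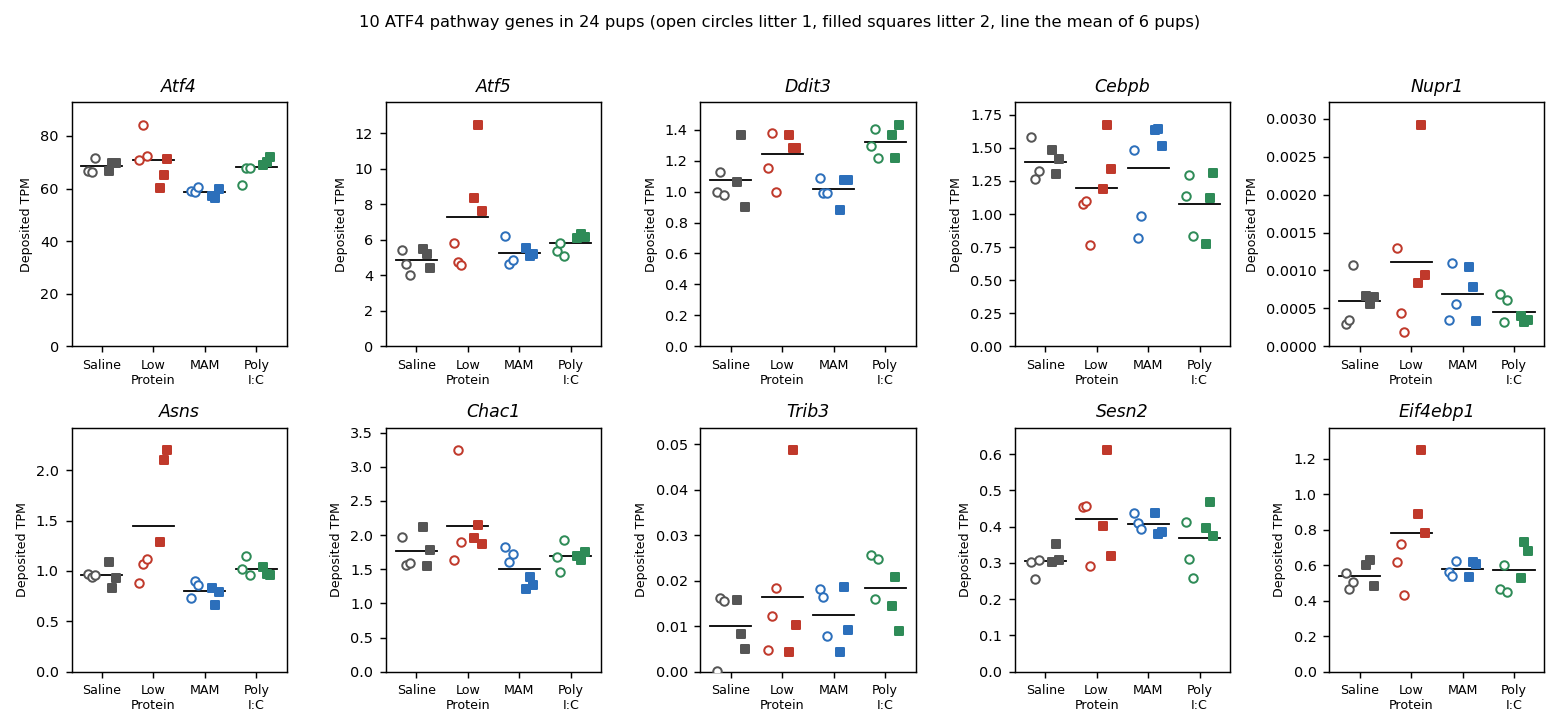
Deposited TPM (linear axes from 0) of the 10 ATF4 pathway genes in each of 24 pups, by group, with open circles for litter 1, filled squares for litter 2 and a line at the mean of 6 pups. In Asns, Atf5 and Eif4ebp1 the filled squares of Low Protein litter 2 lie above all other points, while the Atf4 points of the same litter, at 60.2 to 71.1 TPM, lie among those of the other groups.

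Atf5 encodes a transcription factor whose mRNA is held back by upstream open reading frames in the manner of Atf4. It was at 5.46, 4.65 and 4.02 TPM in saline litter 1 and 5.51, 5.21 and 4.44 TPM in saline litter 2. LP litter 1 was at 5.82, 4.77 and 4.59 TPM and LP litter 2 at 8.37, 12.5 and 7.61 TPM. Again the litters of the LP group did not overlap. The difference from saline was 0.93 ± 0.13 for litter 2 and 0.05 ± 0.11 for litter 1.

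Eif4ebp1 encodes 4E-BP1, which binds the cap-binding protein eIF4E and restrains translation. It was at 0.558, 0.465 and 0.504 TPM in saline litter 1 and 0.603, 0.630 and 0.482 TPM in saline litter 2. In LP litter 1 it was at 0.616, 0.722 and 0.435 TPM, and in LP litter 2 at 0.889, 1.25 and 0.783 TPM. The difference from saline was 0.83 ± 0.15 for litter 2 and 0.11 ± 0.16 for litter 1.

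In these 3 genes, the lowest pup of LP litter 2 was above the highest of the 21 other pups of the study. The 2 values were 1.29 and 1.15 TPM for Asns, 7.61 and 6.32 TPM for Atf5, and 0.783 and 0.733 TPM for Eif4ebp1, and each time the highest other pup was from the Poly I:C group. Across the table, 0.177% of the 5086 genes and 0.142% of the 9879 genes had all 3 pups of that litter above all others. Leaving out LP litter 2 pup 2, the pup with the high meningeal and blood markers, left differences between LP and saline of 0.39 for Asns, 0.32 for Atf5 and 0.32 for Eif4ebp1. Asns was highest in pup 3 of that litter, where those markers were not high. That pup had a dorsal telencephalon sum of 278 TPM, the lowest after saline litter 2 pup 1, and the part of this in its values was not tested.

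The mRNA of Atf4 itself did not share this pattern. It was at 66.8, 66.4 and 71.5 TPM in saline litter 1 and 66.6, 69.8 and 69.6 TPM in saline litter 2. LP litter 1 was at 70.9, 84.4 and 72.4 TPM and LP litter 2 at 60.2, 65.3 and 71.1 TPM. The LP litters thus lay on either side of saline, by 0.15 ± 0.06 for litter 1 and -0.07 ± 0.06 for litter 2, and the litter with the higher Asns had the lower Atf4. Over all LP pups the difference was 0.04 ± 0.06, with group means of 70.7 ± 8.11 and 68.4 ± 2.14 TPM (SD, n = 6 each).

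Sesn2, which encodes sestrin 2, a stress-inducible inhibitor of mTORC1 and also a target of p53, differed from saline in both LP litters. Saline was at 0.303, 0.255 and 0.307 TPM in litter 1 and 0.302, 0.352 and 0.307 TPM in litter 2. LP was at 0.455, 0.458 and 0.290 TPM in litter 1 and 0.401, 0.612 and 0.319 TPM in litter 2. Of the 6 LP pups, 2 were within the range of saline, and the difference was 0.43 ± 0.15 over the group. Counting error is up to 7.9% of a value at this depth.

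Ddit3 encodes CHOP, a factor tied to cell death under prolonged stress. It was at 0.998, 1.13 and 0.981 TPM in saline litter 1 and 1.06, 1.37 and 0.902 TPM in saline litter 2, against 1.15, 1.38 and 0.996 TPM in LP litter 1 and 1.37, 1.28 and 1.28 TPM in LP litter 2. The groups overlapped, with a difference of 0.22 ± 0.09. Chac1 encodes an enzyme that breaks down glutathione. Its LP values were 1.64, 3.25 and 1.90 TPM in litter 1 and 1.95, 2.15 and 1.87 TPM in litter 2, and its saline values ran from 1.55 to 2.12 TPM. Only 2 LP pups were above that range, and the difference was 0.25 ± 0.13. Cebpb encodes a C/EBP factor that ATF4 can pair with. It was at 1.08, 1.10 and 0.770 TPM in LP litter 1, below all saline pups (1.26 to 1.58 TPM), and at 1.19, 1.68 and 1.34 TPM in LP litter 2, so that the group difference was -0.26 ± 0.18.

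Trib3 encodes a pseudokinase that restrains ATF4, and it was barely detected. Its estimated reads were 0, 3 and 6 in saline litter 1 and 3, 2 and 2 in saline litter 2. They were 2, 2 and 5 in LP litter 1 and 1, 16 and 4 in LP litter 2. The group sums were 16 reads in saline, 30 in LP, 28 in MAM and 25 in Poly I:C, and 16 of the 30 LP reads came from LP litter 2 pup 2. Nupr1, a small stress-induced chromatin protein, was listed at 0.000193 to 0.00293 TPM, with the top value again in that pup. A difference in Trib3 was not detectable at this depth. For Nupr1 the length behind its scaling could not be matched. Its reads were therefore not estimated, and no difference is read from its values.

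Of the 5 genes that passed the limit of 1 TPM, 2 were higher in LP at an unadjusted p under 0.05, whereas 8.24% of all genes tested passed it in either direction and 3.66% were higher. With the wider limit the count was 5 of 8, where 2.91% of all genes were higher. None passed after adjustment over all genes in limma, and the same holds for all 5086 genes. For LP and Poly I:C the study also required an absolute log fold change of 0.6, whose base is not given in the sources used here. Read as log2, it was reached together with that p by 0 of the 8 genes in any comparison with saline. Since these contrasts were known when the genes were chosen, nothing is read from these counts. The same holds for the counts of these genes given below for the litters, the other groups and the treatment pairs. The median difference was 0.22 for the 5 genes and -0.01 for all genes tested.

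**Figure D2:**
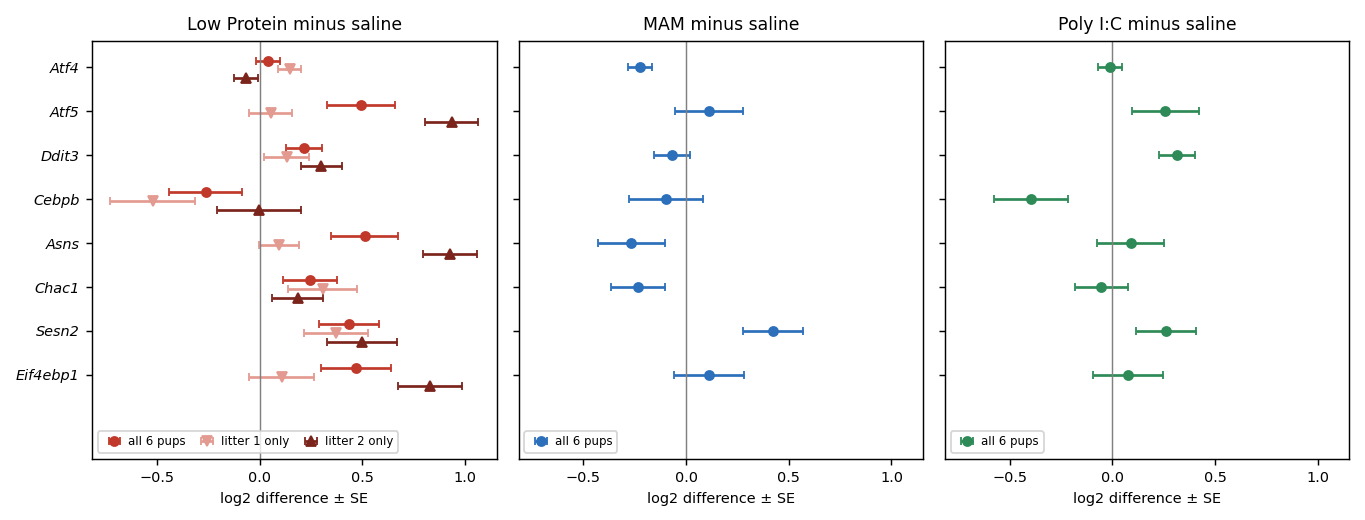
Log2 difference from saline (x axis, ± SE of limma's fit) of 8 ATF4 pathway genes in pups of the 3 treatment groups, with triangles for fits with a single Low Protein litter. In the Low Protein panel the litters part at Asns (0.93 and 0.10), Atf5 (0.93 and 0.05) and Eif4ebp1 (0.83 and 0.11), and lie close together at Sesn2 (0.50 and 0.37).

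The litters of the other groups differed less in these 3 genes. Between litter 2 and litter 1, the difference was 0.88 ± 0.15 for Atf5, 0.83 ± 0.16 for Asns and 0.72 ± 0.19 for Eif4ebp1 in LP. In saline, the 8 genes differed by -0.02 to 0.16 between litters. In Poly I:C the larger values were 0.36 for Sesn2 and 0.35 for Eif4ebp1, with 0.19 for Atf5. In MAM the litters parted at Cebpb (0.59 ± 0.21) and Chac1 (-0.42 ± 0.17). At the unadjusted threshold, 3 of 5 genes differed between the LP litters, against 12.7% of all genes tested, 2 of 5 between the MAM litters (1.24%), 0 of 5 between the saline litters (3.09%) and 0 of 5 between the Poly I:C litters (15.4%). The LP count was 2 with median-of-ratios scaling, where Atf4 went from -0.21 to -0.14 and no longer passed. The 2 litters of a group came from dams given the same treatment, so litter, dam and any difference in handling between them cannot be told apart.

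**Figure D3:**
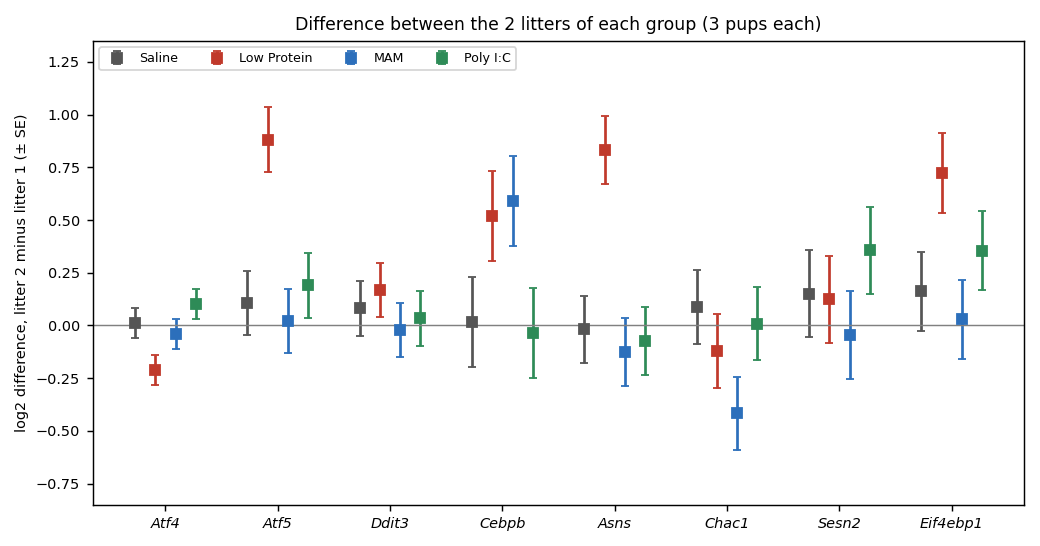
Log2 difference between litter 2 and litter 1 (± SE of limma's fit, 3 pups per litter) of 8 ATF4 pathway genes in each of the 4 groups. The Low Protein points stand highest at Atf5 (0.88), Asns (0.83) and Eif4ebp1 (0.72), where saline lies between -0.02 and 0.16.

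In the MAM group, Atf4 was lower and Sesn2 higher than in saline, without overlap between the groups. Atf4 was at 59.1, 58.7 and 60.6 TPM in MAM litter 1 and at 57.1, 56.4 and 59.9 TPM in litter 2, so that both litters lay under the lowest saline pup. The difference was -0.22 ± 0.06, with a mean of 58.6 ± 1.63 TPM (SD, n = 6), and it kept its direction under median-of-ratios and upper quartile scaling. No overlap in that direction was found for 0.511% of all genes tested. Sesn2 was at 0.438, 0.409 and 0.394 TPM in MAM litter 1 and 0.439, 0.379 and 0.386 TPM in litter 2, all above the highest saline pup, with a difference of 0.42 ± 0.15. Under the wider limit, 0.294% of genes were higher without overlap. The 8 microglia and macrophage markers, none of them at 0, summed to 16.4 to 21.2 TPM in MAM (median 19.2) and 13.6 to 16.9 TPM in saline (median 15.7), with 5 of 6 MAM pups above all saline pups, and their part in these values was not tested.

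Asns went the other way from LP in MAM. It was at 0.732, 0.902 and 0.857 TPM in MAM litter 1 and 0.826, 0.665 and 0.795 TPM in litter 2, with 2 of 6 pups within the saline range and a difference of -0.27 ± 0.16. Chac1 was at 1.82, 1.61 and 1.73 TPM in litter 1, among the saline values, and at 1.21, 1.38 and 1.28 TPM in litter 2, below all of the 21 other pups. That was the case for 0.157% of genes tested. Cebpb was at 1.49, 0.816 and 0.982 TPM in litter 1 and 1.64, 1.64 and 1.51 TPM in litter 2, and the group difference was -0.10 ± 0.18. Ddit3 was at 0.881 to 1.09 TPM, Atf5 at 4.64 to 6.24 TPM and Eif4ebp1 at 0.535 to 0.627 TPM, all overlapping saline. Of 5 genes, 1 was called lower, Atf4, against 11.2% of all genes called in either direction and 8.18% lower.

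In the Poly I:C group, Ddit3 was higher and Cebpb lower than in saline, while Asns and Atf4 were close to saline. Ddit3 was at 1.30, 1.41 and 1.22 TPM in litter 1 and 1.37, 1.22 and 1.43 TPM in litter 2, above 5 of the 6 saline pups, with a difference of 0.31 ± 0.09. Cebpb was at 1.14, 1.30 and 0.830 TPM in litter 1 and 0.776, 1.12 and 1.31 TPM in litter 2, partly within the saline range, with a difference of -0.40 ± 0.18. Asns was at 0.956 to 1.15 TPM (0.09 ± 0.16) and Atf4 at 61.4 to 71.9 TPM (-0.01 ± 0.06). Atf5 was at 5.12 to 6.32 TPM (0.26 ± 0.16), Sesn2 at 0.258 to 0.468 TPM (0.26 ± 0.15) and Eif4ebp1 at 0.447 to 0.733 TPM (0.08 ± 0.17). Chac1, at 1.46 to 1.93 TPM, differed by -0.05 ± 0.13. Of 5 genes, 1 was called higher and 1 lower, against 9.95% of all genes in either direction, 4.25% higher and 5.7% lower. The microglia and macrophage markers summed to 13.1 to 19.8 TPM in Poly I:C, with 4 of 6 pups above all saline pups, and their part was not tested here either.

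The comparisons with saline share the same 6 saline pups, so the treatments were also set against each other. MAM pups were below all Poly I:C pups in Asns (-0.35 ± 0.16), Atf4 (-0.21 ± 0.06) and Ddit3 (-0.38 ± 0.09). No overlap in that direction was found for 3.4% of all genes, or 3.47% with the wider limit that takes in Asns. This was judged on the values as deposited. For Atf4 the nearest pups were MAM litter 1 pup 3 at 60.6 TPM and Poly I:C litter 1 pup 1 at 61.4 TPM. Division by their median-of-ratios factors, 0.956 and 1.03, reverses their order, so the Atf4 separation does not hold under that scaling. Of the 5 genes tested, 2 were called lower, against 23.1% of all genes in either direction and 17.1% lower. Between LP and MAM the differences were 0.78 for Asns, 0.48 for Chac1, 0.38 for Atf5, 0.36 for Eif4ebp1, 0.28 for Ddit3 and 0.26 for Atf4, with Sesn2 level at 0.01. Of 5 genes, 4 were called higher in LP, against 11% of all genes in either direction and 8.79% higher. As the genes were chosen with earlier results of these data known, nothing is read from the counts in this paragraph. With median-of-ratios scaling Atf5 differed by 0.35 and no longer passed, which left 3 of 5. With the wider limit 6 of 8 were called, and 4 of 8 under either other scaling, where Atf5 and Eif4ebp1 were lost. Asns, called lower in MAM than in Poly I:C with the wider limit, was also lost under both other scalings, at -0.31 and -0.33. Between LP and Poly I:C, 1 of 5 was called higher, against 5.31% in either direction and 2.95% higher.

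Genes outside these 10 were taken from 10 lists. Some lists hold genes of the ATF4 pathway, and others hold ATF6 and XBP1 chaperone targets, p53 targets and mTORC1 and eIF4E partners. Counts over all lists are thus not counts of ATF4 targets. Of 127 listed genes found in the table, 79 passed the limit of 1 TPM and were tested with limma over all 5086 genes. In LP, 14 of the 79 passed the unadjusted threshold, 12 of them higher, and 0 passed after adjustment in the same limma fit. That is 17.7% against 8.24% of all genes, with medians of 0.03 and -0.01. All lists were chosen with earlier results of these data known. Shares called among the listed genes, here and below, are therefore a description and not a test of the lists. Of the 12 higher genes, 10 serve amino acid supply. Among 8 aminoacyl-tRNA synthetases, which load amino acids onto tRNA, 5 rose and all 8 were above 0, with a median of 0.15. Tars rose by 0.18 ± 0.05 (adjusted p = 0.455), Yars by 0.24 ± 0.08 (adjusted p = 0.479), Mars by 0.21 ± 0.07 (adjusted p = 0.49) and Nars by 0.16 ± 0.06 (adjusted p = 0.543). Gars, the older symbol of the listed Gars1, had not been matched to its row and is left out of these counts. It differed by 0.13 ± 0.05 (adjusted p = 0.543) in LP, -0.13 ± 0.05 (adjusted p = 0.416) in MAM and 0.05 ± 0.05 (adjusted p = 0.778) in Poly I:C, and with it 15 of 80 listed genes passed in each of the 3 comparisons. In these comparisons 0 of the 79 listed genes reached an absolute log2 difference of 0.6.

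Among 6 enzymes of serine, proline and 1-carbon metabolism, 3 rose in LP, with a median of 0.20. Psat1, the aminotransferase of serine synthesis, rose by 0.48 ± 0.10 (adjusted p = 0.232). It was at 1.63 to 1.92 TPM in saline and at 2.16, 2.21 and 2.10 TPM in LP litter 1 and 2.55, 2.93 and 3.08 TPM in LP litter 2, so that for this gene both litters were above all saline pups. Pycr1, which completes proline synthesis, rose by 0.39 ± 0.09 (adjusted p = 0.232), and Shmt2, a mitochondrial enzyme that moves a carbon unit from serine to folate, by 0.28 ± 0.10 (adjusted p = 0.479). Of 4 amino acid transporters, Slc7a3 rose by 0.31 ± 0.14 (adjusted p = 0.57) and Slc7a5 by 0.25 ± 0.11 (adjusted p = 0.57).

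These calls leaned on LP litter 2, as did Asns. Yars was at 2.27 to 2.62 TPM in saline and at no more than 2.59 TPM in LP litter 1, against 3.26, 3.35 and 3.49 TPM in LP litter 2. Between the LP litters Yars differed by 0.43 ± 0.07 (adjusted p = 0.0238), the only listed gene at the limit of 1 TPM to pass after adjustment there. With the wider limit Yars and Cars, at 0.56 ± 0.10, passed (adjusted p = 0.0481 each). Slc7a3 differed by 0.61 ± 0.15 (adjusted p = 0.228). Without LP litter 2, 0 of 8 synthetases and 0 of 4 transporters passed even the unadjusted threshold of limma, although all 8 synthetases were still above 0, with a median of 0.06. Without that litter Psat1 still passed the unadjusted threshold, higher by 0.28 ± 0.11, and so did Pycr1, higher by 0.21 ± 0.09. Of the 14 calls, 3 were kept without LP litter 2 and 10 without LP litter 1, and all 14 kept their direction in both cases. Without LP litter 2 pup 2, 9 listed genes passed. The calls also depended on the saline litters. Without saline litter 1, 3 of 8 synthetases, 2 of 6 serine and 1-carbon enzymes and 0 of 4 transporters passed, and without saline litter 2 the counts were 3, 3 and 0.

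**Figure D4:**
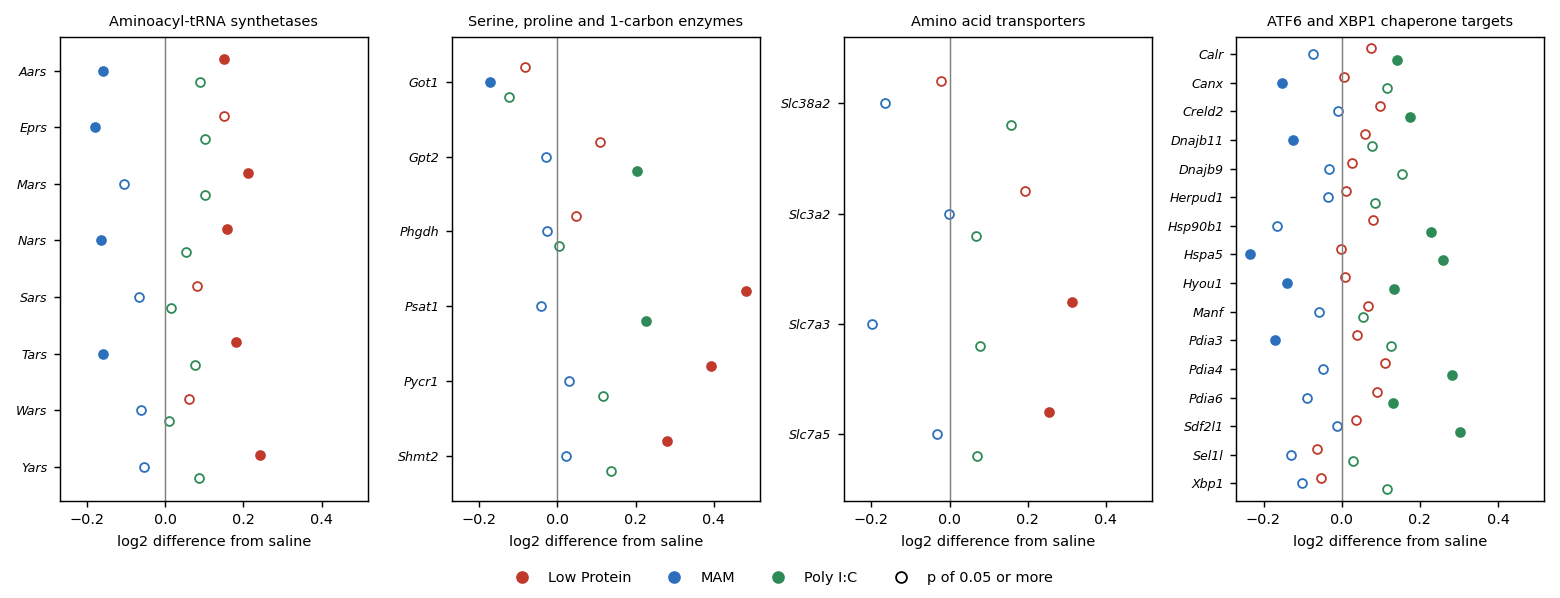
Log2 difference from saline (x axis) of the tested genes of 4 lists for the 3 treatments, with filled points for an unadjusted p under 0.05 in limma and open points otherwise. The synthetases lie right of 0 in Low Protein (8 of 8) and left of it in MAM (0 of 8 above 0), and the chaperones lie right of 0 in Poly I:C (16 of 16) and left of it in MAM (0 of 16 above 0 as deposited, and 4 of 16 under median-of-ratios scaling).

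The chaperone genes of the endoplasmic reticulum, targets of the ATF6 and XBP1 arms of the unfolded protein response, did not pass in LP. Of 16 tested, 0 passed the unadjusted threshold of limma, with a median of 0.04, and Pdia6, with the lowest p, differed by 0.09 ± 0.06 (adjusted p = 0.688). Hspa5, the chaperone BiP, was at 34.8 to 44.3 TPM in saline and 35.1 to 41.2 TPM in LP. In Poly I:C, by contrast, 8 of the 16 rose, all 16 were above 0, and the median was 0.13. Pdia4 rose by 0.28 ± 0.08 (adjusted p = 0.2), Hspa5 by 0.26 ± 0.07 (adjusted p = 0.248), Hsp90b1 by 0.23 ± 0.08 (adjusted p = 0.314) and Sdf2l1 by 0.30 ± 0.12 (adjusted p = 0.367). In the direct comparison of LP with Poly I:C, 5 of the 16 were lower in LP, with Hspa5 at -0.26 ± 0.07 (adjusted p = 0.587). Of these 5, 0 were kept without Poly I:C litter 2, 1 without LP litter 2 and 3 without LP litter 1.

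The Poly I:C chaperone calls also rested on 1 litter. Hspa5 was at 44.3, 42.2 and 43.0 TPM in Poly I:C litter 1, within or at the edge of the saline range, and at 53.6, 46.2 and 56.9 TPM in litter 2. Without Poly I:C litter 2, 0 of the 16 passed the unadjusted threshold in limma, and without litter 1, 10 did. Without saline litter 2, 3 passed. The synthetases did not pass in Poly I:C (0 of 8 at an unadjusted p under 0.05 in limma, all above 0, median 0.08), and Tars, with the lowest p, differed by 0.08 ± 0.05 (adjusted p = 0.645). Of the serine and 1-carbon list, Gpt2, an alanine aminotransferase, rose by 0.20 ± 0.06 (adjusted p = 0.271) and Psat1 by 0.23 ± 0.10 (adjusted p = 0.462). Txnip, a thioredoxin-binding protein, rose by 0.44 ± 0.14 (adjusted p = 0.269). Over all lists, 15 of 79 passed in Poly I:C (19.0% against 9.95% of all genes), 13 of them higher, with a median of 0.06 against 0.01, and without Poly I:C litter 2 the number was 2.

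In MAM, 14 of 79 passed (17.7% against 11.2% of all genes), 11 of them lower, with a median of -0.06 against -0.05. Synthetases and chaperones lay below saline together. Of the synthetases 4 fell and 0 of 8 were above 0, with Tars at -0.16 ± 0.05 (adjusted p = 0.391) and Nars at -0.16 ± 0.06 (adjusted p = 0.416). Of the chaperones 5 fell and 0 of 16 were above 0 as deposited (4 of 16 under median-of-ratios scaling), with Hspa5 at -0.23 ± 0.07 (adjusted p = 0.38) and Pdia3 at -0.17 ± 0.07 (adjusted p = 0.416). These calls depended on the scaling of the samples. With median-of-ratios scaling, 2 synthetases and 2 chaperones were called lower. Over all 5086 genes, MAM called 156 higher and 416 lower as deposited, but 306 higher and 199 lower under that scaling. Without MAM litter 2, 0 of the 8 synthetases and 0 of the 16 chaperones passed the unadjusted threshold in limma, and without saline litter 1, 0 synthetases and 1 chaperone did.

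Sesn2 is shared between the ATF4 and p53 pathways, and the part of either in its values was not tested. Of 8 p53 targets, 2 rose in MAM at the unadjusted threshold, where 156 of all 5086 genes did as deposited. Aen, a p53-induced exonuclease, rose by 0.35 ± 0.06 (adjusted p = 0.0145), the only listed gene at the limit of 1 TPM to pass after adjustment in a comparison with saline, at 2.11 to 2.36 TPM against 1.53 to 1.94 TPM. With the wider limit Cdkn1a, the p53-induced cell cycle inhibitor p21, passed as well, at 1.00 ± 0.12 (adjusted p = 0.000353). With 1 or the other MAM litter left out Aen was higher by 0.39 or 0.31. Bbc3, which encodes the pro-apoptotic PUMA, rose by 0.27 ± 0.08 (adjusted p = 0.331). Ddit4, an mTORC1 inhibitor induced by both ATF4 and p53, rose by 0.22 ± 0.06 (adjusted p = 0.331). In LP, where Sesn2 was also higher, Aen was at 1.62 to 2.06 TPM, and the p53 list gave Bax at 0.12 ± 0.06 (adjusted p = 0.578) and Plk3 at -0.28 ± 0.11 (adjusted p = 0.543). In Poly I:C, Aen rose by 0.14 ± 0.06 (adjusted p = 0.389) and Zmat3 by 0.20 ± 0.10 (adjusted p = 0.485).

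Set against each other, LP and MAM, and likewise MAM and Poly I:C, gave more calls among the listed genes than any comparison with saline. Between LP and MAM, 30 of 79 listed genes passed (38% against 11% of all genes), 26 of them higher in LP. All 8 synthetases were higher in LP, with a median of 0.31. Tars (0.34 ± 0.05, adjusted p = 0.00419), Nars (0.32 ± 0.06, adjusted p = 0.0413) and Psat1 (0.52 ± 0.10, adjusted p = 0.0413) passed after adjustment, as did Gars (0.26 ± 0.05, adjusted p = 0.0413). With the wider limit the listed genes that passed after adjustment were Tars, Lars, Mthfd2 and Cdkn1a. Tars was at 2.24 to 2.80 TPM in LP and 1.85 to 2.11 TPM in MAM, without overlap. Without MAM litter 2, 18 of the 79 listed genes passed, and how many of these were synthetases is not given here. Among the synthetases the contrast held with a single LP litter, since 6 passed without LP litter 2 and 7 without litter 1. Under median-of-ratios scaling 7 passed. Over all genes that scaling changed the calls from 447 higher and 113 lower to 277 and 232.

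Between MAM and Poly I:C, 31 of 79 passed (39.2% against 23.1%), 27 of them lower in MAM and 16 after adjustment. The chaperones led, with 13 of 16 lower in MAM, 9 of them after adjustment. Hspa5 was at 31.1 to 37.1 TPM in MAM and 42.2 to 56.9 TPM in Poly I:C (-0.49 ± 0.07, adjusted p = 0.00186). Hsp90b1 (-0.39 ± 0.08, adjusted p = 0.0137) and Hyou1 (-0.27 ± 0.06, adjusted p = 0.0137) followed. Pdia3, Pdia4, Dnajb11, Pdia6, Canx and Calr also passed, at -0.20 to -0.33, and so did the synthetases Tars, Aars and Eprs at -0.24 to -0.28. Gpt2 (-0.23) and Ppp1r15b (-0.26), a subunit that directs the phosphatase of eIF2 alpha, passed as well, while Bbc3 (0.37) and Aen (0.21) were higher in MAM. With the wider limit, only the chaperones Hspa5, Hsp90b1, Hyou1, Pdia3 and Pdia4 still passed after adjustment. The other listed genes that passed there were Tars, Lars and Mthfd2, lower in MAM, and Bbc3, Cdkn1a and Phlda3, higher in MAM. Without Poly I:C litter 2, 10 of the 16 chaperones passed, and under median-of-ratios scaling 11 were lower, where the calls over all genes went from 306 higher and 870 lower to 577 and 574.

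At the sensing end of the pathway few genes passed. Of 5 tested genes for eIF2 alpha kinases, their regulators and phosphatase subunits, 0 passed the unadjusted threshold of limma in LP, where Gcn1l1 had the lowest p (-0.08 ± 0.11, adjusted p = 0.886), or in Poly I:C, where Ppp1r15b did (0.11 ± 0.07, adjusted p = 0.646). In MAM, Ppp1r15b fell by 0.15 ± 0.07 (adjusted p = 0.44). Of 8 subunits of eIF2 and its exchange factor eIF2B, Eif2b1 rose in LP by 0.14 ± 0.04 (adjusted p = 0.479), while none passed in MAM (lowest for Eif2s2, -0.18 ± 0.10, adjusted p = 0.472) or Poly I:C (lowest for Eif2s1, 0.18 ± 0.10, adjusted p = 0.586). Of 10 partner factors of the bZIP family, none passed in LP (lowest for Cebpg, 0.18 ± 0.10, adjusted p = 0.624) or MAM (lowest for Mafg, -0.15 ± 0.10, adjusted p = 0.515), and Jund fell in Poly I:C by 0.20 ± 0.08 (adjusted p = 0.416).

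Of 6 mTORC1 and eIF4E partners, which act beside Eif4ebp1 and Sesn2, 0 passed the unadjusted threshold of limma in any comparison with saline (lowest for Gatsl2 in LP at adjusted p = 0.825, and for Akt1s1 in MAM at 0.44 and in Poly I:C at 0.71). Of 8 further ATF4 targets of stress and growth, only Sqstm1, the autophagy receptor p62, passed in LP, and it fell by 0.12 ± 0.06 (adjusted p = 0.596). It also fell in Poly I:C, by 0.15 ± 0.06 (adjusted p = 0.335). In MAM, Got1 of the serine and 1-carbon list fell by 0.17 ± 0.08 (adjusted p = 0.416). No amino acid transporter passed in MAM or Poly I:C, with the lowest p for Slc38a2 in both (-0.17 ± 0.10, adjusted p = 0.472, and 0.16 ± 0.10, adjusted p = 0.601).

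Over the 24 pups, the genes whose log2 values ran most like Asns were Yars (Pearson's r = 0.88), Mars (0.83), Slc7a3 (0.82), Gars (0.82) and Psat1 (0.79), all of tRNA charging, transport or serine synthesis, out of 5086 genes. Without the 3 pups of LP litter 2, r was 0.62, 0.62, 0.41, 0.66 and 0.46, and the genes most like Asns were Trim32 (0.78), Sae1 (0.78), Fdft1 (0.76), Sike1 (0.75) and Terf2ip (0.75), none of them in the lists. Those most like Atf4 were Nop56 (0.83), Glod4 (0.80), Ndufs1 (0.80), Ccdc137 (0.78) and Atp5j (0.78), none of them in the lists. Among the 10 genes, Asns ran with Atf5 at r = 0.68 and with Eif4ebp1 at 0.58 over 24 pups, but at -0.05 and -0.17 over the 21 pups outside LP litter 2. With Atf4 the change was the reverse, from 0.33 over 24 pups to 0.65 over 21. Pups share a dam, a group and a depth, so these coefficients are a description and carry no test.

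**Figure D5:**
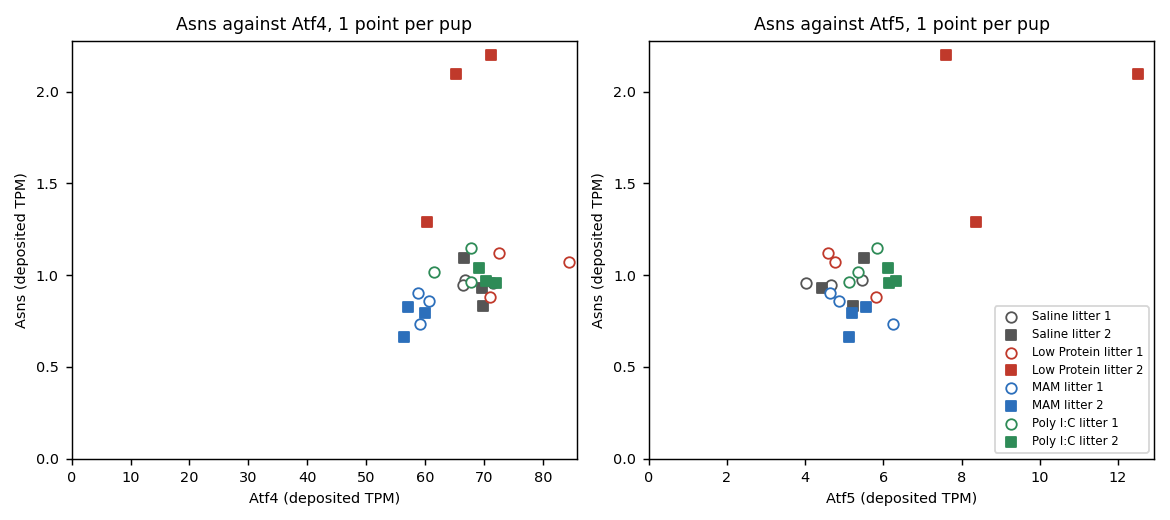
Asns (y axis) against Atf4 (left) and Atf5 (right) in deposited TPM, 1 point per pup, colored by group, with open circles for litter 1 and filled squares for litter 2. Low Protein litter 2 lies apart at the top of both plots, at 1.29 to 2.20 TPM of Asns, with Atf5 at 7.61 to 12.5 TPM and with Atf4 at 60.2 to 71.1 TPM, within the range of the other groups.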

How the data were processed

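Neocortical and hippocampal RNA of 24 pups was sequenced by the authors with a stranded mRNA kit. Per the labels and the study's methods, they trimmed reads at a phred score of 30 with a minimum length of 25 bases, aligned them to rn6 with STAR 2.4.1d in Partek Flow and quantified RefSeq transcripts with Partek's estimation-maximization method. The deposited TPM table held 17420 rows, with an offset of 0.0001 in every value. The offset alone made up 20.9% of values, and each column summed to about 70350, less than a complete TPM column. Low values lay within 0.05 of whole reads for 49.2 to 54.4% of genes, against 10% by chance, when multiplied by genomic span. Reads and depth were estimated from those steps, and no count test was run. Litters were read from the sample titles.

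The main test was limma 3.58.1 (R 4.3.3) on the log2 deposited value of all 24 pups with group as the factor, on 5086 genes with a mean above 1 TPM in every group, with Benjamini-Hochberg adjustment. Litter contrasts used the 8 litters as the factor. Alternatives covered the limit on low values, the pseudocount, the scaling, litter means, a replicate block, and leaving out each pup and litter. The fits were tested on simulated data. The 10 genes and all lists were chosen with earlier results of these data known, so the genes' own values carry no p-value.

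All 10 genes were named. In each list, the up to 4 genes with the lowest unadjusted p under 0.05 in each comparison with saline, or the lowest of a list with none, and any with an adjusted p under 0.05 were eligible, with the 5 genes most correlated with Asns and with Atf4. Hspa5, Tars, Yars and Aen were also shown in groups where they did not pass, chosen after their values were seen. Promoters came from RefSeq (GRCr8), and their coordinates are not those of rn6. Listed symbols not matched to a row were not analysed here, except Gars, the older symbol of the listed Gars1, which was added after the data were seen and is in no list count unless stated. The genes most like Asns without LP litter 2, Cars, Cdkn1a, Lars, Mthfd2 and Phlda3 were also named after their values were seen. Gene names follow the table, where some synthetases, Gcn1l1 and Gatsl2 carry older symbols.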

Additional observations from a re-analysis of the deposited data

Results flagged for a closer look

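Of 40 sets of 6 pups (10 genes in 4 groups), 2 held a pup far from the rest, by a gap of more than 0.625 of the set's range, where chance gives about 1 in 20. Trib3 was at 0.0488 TPM in Low Protein litter 2 pup 2, on an estimated 16 reads. Chac1 was at 3.25 TPM in Low Protein litter 1 pup 2, against 1.64 to 2.15 TPM in the other Low Protein pups. 4 listed genes passed an unadjusted p under 0.05 against saline in opposite directions in 2 treatments, which differed from each other in limma after adjustment. Between Low Protein and MAM, Tars differed by 0.341 (adjusted p = 0.00419) and Nars by 0.321 (adjusted p = 0.0413) on the log2 scale. Between MAM and Poly I:C, Hspa5 differed by -0.493 (adjusted p = 0.00186) and Hyou1 by -0.272 (adjusted p = 0.0137).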

How the results depend on the processing

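Among the counts of listed genes, the litter counts of the 10 genes and their median differences from saline, 482 values under alternatives stayed within the set limits and 22 moved. Counts and medians had different limits and are pooled in these numbers. Among the 10 genes, 6 differences from saline that had not been called changed sign under an alternative: Atf4 in LP (0.04, as low as -0.07) and Poly I:C (-0.01, as high as 0.04), Ddit3 (-0.07, as high as 0.0047) and Cebpb (-0.10, as high as 0.20) in MAM, and Chac1 (-0.05, as high as 0.0017) and Eif4ebp1 (0.08, as low as -0.10) in Poly I:C. The listed genes with p under 0.05 in LP against saline (14) were 4 with litter means, 9 without LP pup 2.2, 5 without LP litter 2, and 9 and 8 without saline litter 1 and 2. In MAM (14) they were 7 without MAM pup 2.2, 5 without MAM litter 2 and 5 without saline litter 1. In Poly I:C (15) they were 8 with litter means, 2 without Poly I:C litter 2 and 7 without saline litter 2. Between LP and MAM (30) they were 18 without MAM litter 2. Between LP and Poly I:C (10) they were 5 with litter means, 6 without Poly I:C pup 2.1, and 22 and 4 without LP litter 1 and 2. Leaving out each pup in turn gave 9 to 17 (LP), 7 to 19 (MAM), 10 to 19 (Poly I:C), 25 to 32 (LP against MAM), 6 to 14 (LP against Poly I:C) and 27 to 36 (MAM against Poly I:C). Between litters, the count of the 10 genes was 5 with the wider limit and 2 to 3 without single pups in LP, and 1 to 2 without single pups in MAM.

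With a replicate block the listed genes were 14 in LP, 17 in MAM, 17 in Poly I:C, 32 for LP against MAM, 13 for LP against Poly I:C and 33 for MAM against Poly I:C. Pups with the same number in 2 groups had a median correlation of their deviations of 0.16 over 36 pairs, 22 of them over 0.1 and the lowest at -0.42, against -0.02 over 180 other pairs, 57 of them over 0.1. Pairing by number required every pair to be over 0.1, so the numbers were not taken to pair the samples. With litter as a random effect, the estimated correlation was 0.0307.

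With a pseudocount of 1, Sesn2 differed from saline by 0.12 in LP and 0.11 in MAM. Over all genes, the calls higher and lower with median-of-ratios scaling were 223 and 154 between the LP litters (82 and 565 as deposited), 277 and 232 between LP and MAM (447 and 113), and 577 and 574 between MAM and Poly I:C (306 and 870). No scaling moved the median of all genes by more than 0.0738. With 2 dams per group and up to 15.3% counting error for Cebpb, small differences were not detectable.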
